A study of Mus musculus with 6 samples.

Results

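Jun, Maff, Egr1, Egr2, Myc, Csrnp1 and Atf3 encode transcription factors of the early response of cells to stress and growth signals. These 7 genes, of 18382 genes in the deposited table and 8969 that code for proteins, were taken by gene name, and the FPKM of their listed transcripts were summed. FPKM is a number of fragments scaled to transcript length and to the reads of the library, so levels can be compared between genes per length. RNA was measured in 6 isolated hearts of male mice, all perfused on a Langendorff apparatus, which feeds a heart outside the body through its coronary vessels. The 3 I/R hearts (ischemia and reperfusion) are labelled as having had 30 min of ischemia, during which Tomas cardioplegia, a solution that stops the beat, arrested contraction, and then 1 h of reperfusion, and in the 3 Sham hearts contraction was not stopped. The treatment label of the Sham hearts gives no times, so whether both groups were perfused equally long was not checked here. No strain or age is given in the labels, and no heart without perfusion was analysed here, so what perfusion itself does to these genes was not measured. The totals behind the FPKM were 7690040, 8896834 and 7827563 reads in I/R replicates 1, 2 and 3, against 9902397, 9643195 and 7233171 reads in Sham replicates 1, 2 and 3. These totals, and all read numbers below, were worked back from the FPKM, and a gene with few reads is given the smallest whole numbers that its FPKM allow. The listed transcripts of protein-coding genes held 36.8% to 39.9% of these totals, so for each gene an unknown share of its reads may belong to transcripts not analysed here.

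Genes of this kind are transcribed within minutes of a stimulus, from factors already present in the cell, and their mRNAs are short-lived. Signals pass mostly through MAP kinase cascades to factors such as SRF with its ELK partners, CREB and preformed AP-1, which bind short motifs near the start sites. JUN is the central subunit of AP-1, a dimer of basic leucine zipper proteins. MAFF is a small MAF protein, which lacks an activation domain and pairs with CNC proteins such as NRF2. ATF3 is a stress-induced basic leucine zipper protein that can pair with JUN. EGR1 and EGR2 are zinc finger proteins held in check by the NAB corepressors. MYC pairs with MAX and drives genes of growth and ribosome production. CSRNP1 is a nuclear protein first described as a target of AXIN1. In the heart, such genes are known to respond to stretch, to reperfusion and to the isolation of the organ.

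The start sites of Jun, Maff and Csrnp1 are shown because these genes had the most alike profiles over the 6 hearts, as given further on. The windows run from 250 bases before to 50 bases after a RefSeq start site on GRCm38.p6, in the direction of the gene, and the capitals mark matches to the motifs searched. For a gene with several start sites, the window with the most matches is given.
Jun, chr4:95052173-95052472, minus strand: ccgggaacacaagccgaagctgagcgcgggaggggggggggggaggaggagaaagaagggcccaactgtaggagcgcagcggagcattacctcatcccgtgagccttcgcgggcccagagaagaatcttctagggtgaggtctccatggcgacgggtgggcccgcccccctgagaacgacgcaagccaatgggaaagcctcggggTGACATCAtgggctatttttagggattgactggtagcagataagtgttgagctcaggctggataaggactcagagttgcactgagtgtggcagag
Maff, chr15:79347270-79347569, plus strand: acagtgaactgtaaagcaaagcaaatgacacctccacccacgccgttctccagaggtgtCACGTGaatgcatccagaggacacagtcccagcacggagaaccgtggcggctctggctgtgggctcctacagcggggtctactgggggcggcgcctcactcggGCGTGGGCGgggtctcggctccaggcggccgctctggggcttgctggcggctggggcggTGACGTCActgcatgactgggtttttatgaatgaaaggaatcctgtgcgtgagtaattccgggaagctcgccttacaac
Csrnp1, chr9:119982974-119983273, minus strand: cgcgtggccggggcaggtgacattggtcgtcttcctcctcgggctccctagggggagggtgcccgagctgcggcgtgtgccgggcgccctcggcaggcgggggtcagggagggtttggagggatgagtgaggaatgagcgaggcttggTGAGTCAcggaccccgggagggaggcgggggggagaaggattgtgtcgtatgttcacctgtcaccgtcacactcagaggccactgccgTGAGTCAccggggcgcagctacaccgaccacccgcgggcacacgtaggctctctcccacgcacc
The Jun window held TGACATCA, a variant of the AP-1 and ATF motif, at position -45 from the start site, and 3.62% of all 32851 mouse windows of this length held these letters. The Maff window held the CREB and ATF motif TGACGTCA at -29 (1.79% of all windows), the EGR motif GCGTGGGCG at -88 (0.612%) and the E-box CACGTG, the motif of MYC and its relatives, at -191 (7.15%). The Csrnp1 window held the AP-1 motif TGAGTCA at -102 and at -14 (5.20%). These Maff motifs were in 1 of the 3 windows of Maff, another of which held TGACATCA, and TGAGTCA was in 1 of the 4 windows of Csrnp1. The shares are for single windows, whereas the windows shown for these 2 genes were picked for the most matches. All motifs were searched on both strands, the matches shown do not overlap, and 18.6% of all windows held at least 1 of the 6 motifs searched. The sixth motif was the CArG box, the site of SRF (1.63% of all windows), which was matched in 4 of the 5 windows of Egr2, windows that overlap in part. The other Egr2 window held an E-box, and the single Atf3 window held none of the motifs. In all, 5 of the 7 genes had windows in the table used. A match describes letters and not a bound site.

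In these hearts, Jun, Maff, Csrnp1, Egr1, Egr2 and Myc had higher means in the I/R group, but 2 of the 3 I/R hearts carried most of the difference. I/R replicates 2 and 3 lay above all Sham hearts in all 6 genes that could be tested, whereas I/R replicate 1 lay within the range of the Sham hearts in 4 of them, above it for Myc and below it for Egr2. The share of all protein-coding genes with this pattern was not counted, so it is not read as particular to these genes. No gene passed the test. With limma on log2(FPKM + 1), 0 of 12114 genes, which is 0%, had an adjusted p (Benjamini-Hochberg) under 0.05, and 1023 had an unadjusted p under 0.05. Atf3 was below the filter of a mean of 0.5 FPKM and was not in this fit. The differences below are on the log2(FPKM + 1) scale, I/R minus Sham, with their standard errors, and for genes around 1 FPKM or less such a difference is smaller than that of the FPKM themselves.

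Jun (ENSMUSG00000052684, GRCm38 chromosome 4, 95049034 to 95052222, minus strand, 1 exon) was by far the most abundant of the group per length. It had 512, 1117 and 1129 FPKM in I/R replicates 1, 2 and 3, against 388, 640 and 532 FPKM in Sham replicates 1, 2 and 3. The I/R hearts held 72439 reads of it and the Sham hearts 44211. I/R replicates 2 and 3 stood above all Sham hearts, and I/R replicate 1 lay between Sham replicates 1 and 3. The means were 919 ± 353 FPKM in I/R and 520.0 ± 126 FPKM in Sham (SD, n = 3 each). The difference was 0.76 ± 0.34, with a limma adjusted p of 0.598, and 71 of the 5041 protein-coding genes tested had a larger one. Jun ranked 23 in mean FPKM among the protein-coding genes tested, so in this gene the precision was set by the spread between hearts and not by the number of reads.

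Maff (ENSMUSG00000042622, chromosome 15, 79346621 to 79359076, plus strand) had 27.8, 57.1 and 55.1 FPKM in I/R replicates 1, 2 and 3, against 17.0, 38.4 and 22.1 FPKM in Sham replicates 1, 2 and 3. The groups overlapped, since Sham replicate 2 was higher than I/R replicate 1. The means were 46.7 ± 16.4 FPKM in I/R and 25.8 ± 11.2 FPKM in Sham (SD, n = 3 each), a difference of 0.84 ± 0.37 with a limma adjusted p of 0.598. Maff was the only gene of the group with 2 listed transcripts, of 633 and 1902 bases. The shorter one held 82.4% to 88.8% of its FPKM in the 6 hearts, so the ordering of the hearts was mostly that of this transcript.

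Atf3 (ENSMUSG00000026628, chromosome 1, 191170296 to 191218039, minus strand) was close to absent from its listed transcript. It had 0, 1 and 2 reads in I/R replicates 1, 2 and 3, against 1, 0 and 0 reads in Sham replicates 1, 2 and 3, or 0 to 0.134 FPKM in I/R and 0 to 0.0530 FPKM in Sham. A count of 0 allows up to 3 reads, which is 0.205 FPKM in I/R replicate 1 and 0.163 and 0.218 FPKM in Sham replicates 2 and 3, counting error alone. An exact two-sided permutation test of FPKM over the 6 hearts gave p = 0.4, where 0.1 is the smallest p that 3 hearts against 3 can give. A difference was not detectable at this depth, and no fold is given.

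Egr1 (ENSMUSG00000038418, chromosome 18, 34859823 to 34864984, plus strand) was low in every heart, with 0.493, 0.902 and 1.08 FPKM in I/R replicates 1, 2 and 3, against 0.293, 0.486 and 0.493 FPKM in Sham replicates 1, 2 and 3. These values rest on 17, 36 and 38 reads in I/R and 13, 21 and 16 reads in Sham. I/R replicates 2 and 3 were above all Sham hearts, and I/R replicate 1 was just under the highest Sham heart. The difference was 0.35 ± 0.21, with a limma adjusted p of 0.719.

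Egr2 (ENSMUSG00000037868, chromosome 10, 67535475 to 67542188, plus strand), best known from Schwann cells and lymphocytes, differed more among the I/R hearts than the other 5 genes tested. It had 1.17, 4.93 and 4.75 FPKM in I/R replicates 1, 2 and 3, against 2.92, 3.04 and 2.70 FPKM in Sham replicates 1, 2 and 3, on 24, 117 and 99 reads and on 77, 78 and 52 reads. The Sham hearts were close to each other, I/R replicates 2 and 3 lay above them and I/R replicate 1 below them. The coefficient of variation was 58.6% in I/R and 5.94% in Sham, and I/R replicate 2 held 4.21 times the FPKM of I/R replicate 1. The difference of the means was 0.11 ± 0.40 (limma adjusted p = 0.964), and it was -0.14 without I/R replicate 2, -0.11 without I/R replicate 3 and 0.59 without I/R replicate 1.

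Myc (ENSMUSG00000022346, chromosome 15, 61985391 to 61990374, plus strand) was the only gene of the group in which the I/R and Sham hearts did not overlap. It had 6.48, 12.98 and 11.74 FPKM in I/R replicates 1, 2 and 3, against 3.71, 4.08 and 2.90 FPKM in Sham replicates 1, 2 and 3. These values rest on 19, 44 and 35 reads in I/R and 14, 15 and 8 reads in Sham, because the listed transcript has 381 bases. The means were 10.4 ± 3.45 FPKM in I/R and 3.57 ± 0.603 FPKM in Sham (SD, n = 3 each). The difference of 1.28 ± 0.28 was the largest of the group, and 11 of 5041 protein-coding genes had a larger one. Its limma adjusted p was 0.386, where the smallest over all genes was 0.385. The adjustment can give genes of unlike p the same value, as for Pln, also at 0.386. By unadjusted limma p, 13 of the 5041 protein-coding genes tested were below Myc.

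Csrnp1 (ENSMUSG00000032515, chromosome 9, 119971163 to 119984658, minus strand) had 7.60, 21.9 and 19.3 FPKM in I/R replicates 1, 2 and 3, against 6.13, 12.8 and 7.03 FPKM in Sham replicates 1, 2 and 3. As for Maff, Sham replicate 2 was higher than I/R replicate 1, and the other I/R hearts were above all Sham hearts. The means were 16.3 ± 7.61 FPKM in I/R and 8.66 ± 3.63 FPKM in Sham (SD, n = 3 each), a difference of 0.78 ± 0.43 with a limma adjusted p of 0.670. The difference was 1.22 without I/R replicate 1 and 0.52 without I/R replicate 2.

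**Figure D1:**
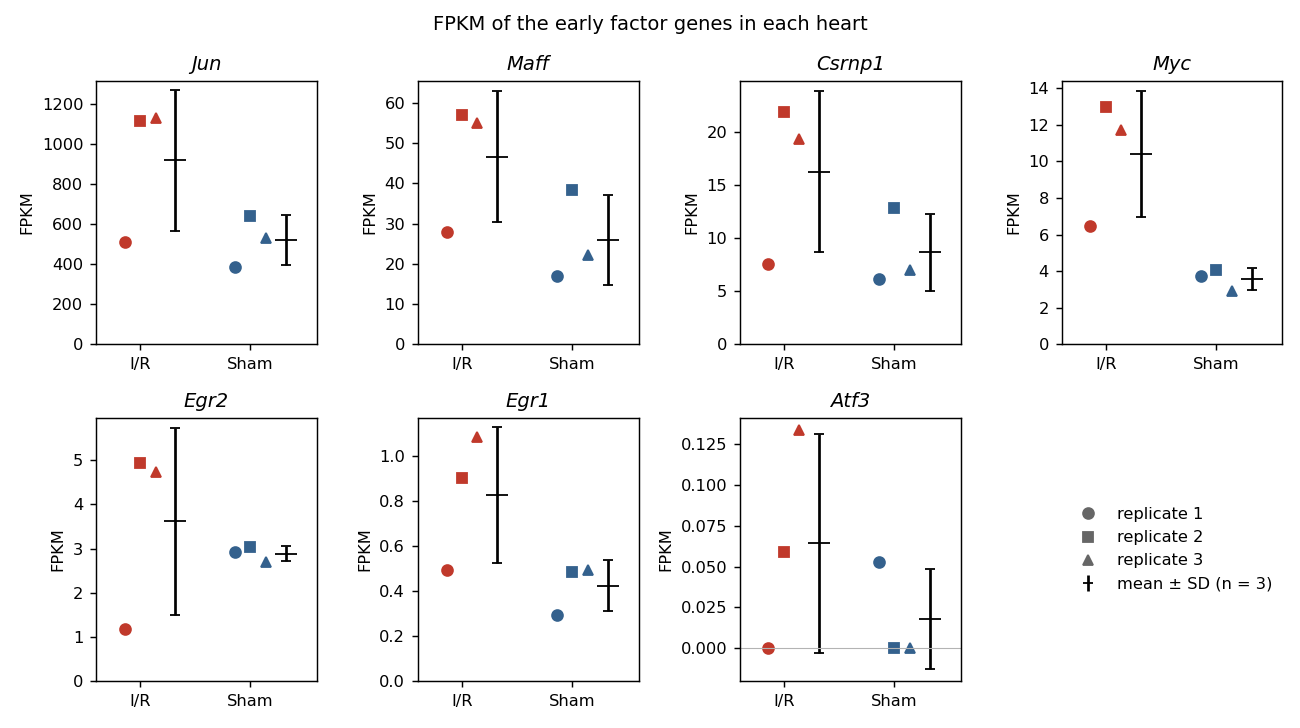
Level in FPKM (linear axis from 0, 1 panel per gene) in each heart, I/R left and Sham right, with points for hearts and the bar and whiskers for the mean ± SD of 3 hearts. I/R replicate 1 is the lowest I/R heart in every panel, and the Myc panel alone has no overlap between the groups.

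Read as a group, 6 of the 6 genes tested had a higher mean in I/R hearts, with a median difference of 0.77, against 54.9% with a higher mean in I/R and a median of 0.02 over the 5041 protein-coding genes tested. The genes were chosen with earlier results of these data known, so this comparison is a description and may follow from the choice. For Egr2 the sign was not stable, as it changed without I/R replicate 2 and without I/R replicate 3. Of these 6, Myc alone had all I/R hearts above all Sham hearts, a pattern seen in 445 protein-coding genes (8.83%). Myc was also the only one with an unadjusted limma p under 0.05 and a higher level in I/R, as 173 protein-coding genes were (3.43%). With 6 genes, a count of 1 is not read as a result about the group. Without I/R replicate 1 the number of genes of the group higher in I/R with an unadjusted p under 0.05 was 5, where 3.49% of the protein-coding genes were so in that fit, and without Sham replicate 2 it was 2 (3.25%). The same number was 4 with a replicate block (3.21%), 4 with voom on the recovered reads (4.33%), 3 with array weights (3.73%) and 3 with protein-coding genes fitted alone (5.87%). It stayed at 1 in all other settings, also without I/R replicate 2, I/R replicate 3, Sham replicate 1 or Sham replicate 3. I/R replicate 1 was the lowest I/R heart in each of the 6 genes, so leaving it out raised every difference by construction. No adjusted p was under 0.05 in any of these fits.

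**Figure D2:**
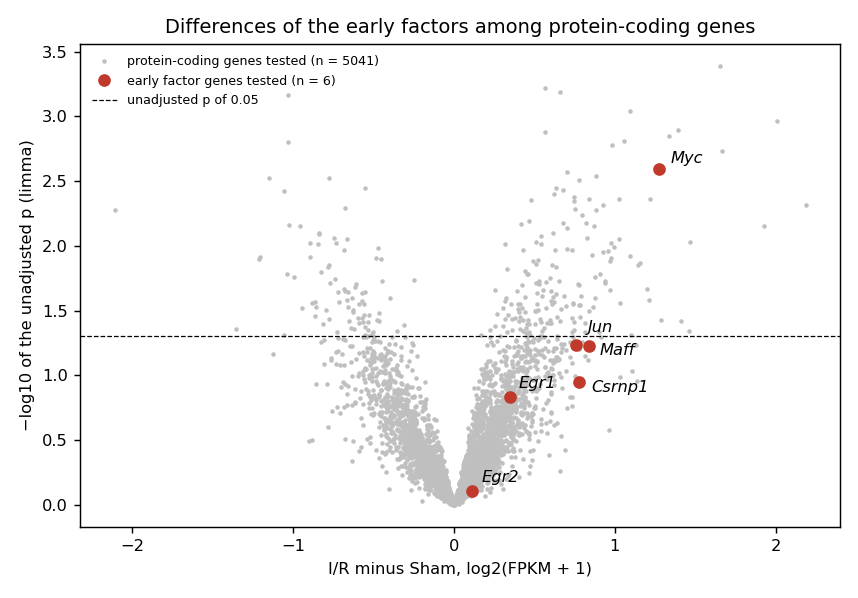
Difference in log2(FPKM + 1), I/R minus Sham, on the x axis and -log10 of the unadjusted limma p on the y axis for 5041 protein-coding genes, with the 6 early factor genes tested named. Myc, at 1.28, lies apart from Jun, Maff and Csrnp1, at 0.76 to 0.84, and from Egr1 and Egr2.

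The order of the levels was Jun, Maff, Csrnp1, Myc, Egr2, Egr1 and Atf3 by mean FPKM in both groups. In I/R hearts the neighbours Csrnp1 and Myc overlapped, and the ranges of all other neighbours were apart. In Sham hearts Myc and Egr2 overlapped, and the ranges of all other neighbours were apart.

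The hearts themselves followed an order across the genes. Set against the Sham mean of each gene, the median over the 6 genes tested was 0.04, 1.16 and 1.14 in I/R replicates 1, 2 and 3, against -0.26, 0.25 and -0.10 in Sham replicates 1, 2 and 3. I/R replicate 1 was the lowest I/R heart in 6 of the 6 genes, and Sham replicate 2 the highest Sham heart in 5. Such counts of hearts were not made over all protein-coding genes. I/R replicate 2 held the highest value of all hearts in 4 genes and I/R replicate 3 in 2. The lowest value was in Sham replicate 1 for 4 genes, in Sham replicate 3 for Myc and in I/R replicate 1 for Egr2. Over all protein-coding genes tested, the same medians were 0.07, -0.01 and 0.01 in I/R replicates 1, 2 and 3, but FPKM are scaled to the total of a library, which holds such medians near 0.

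**Figure D3:**
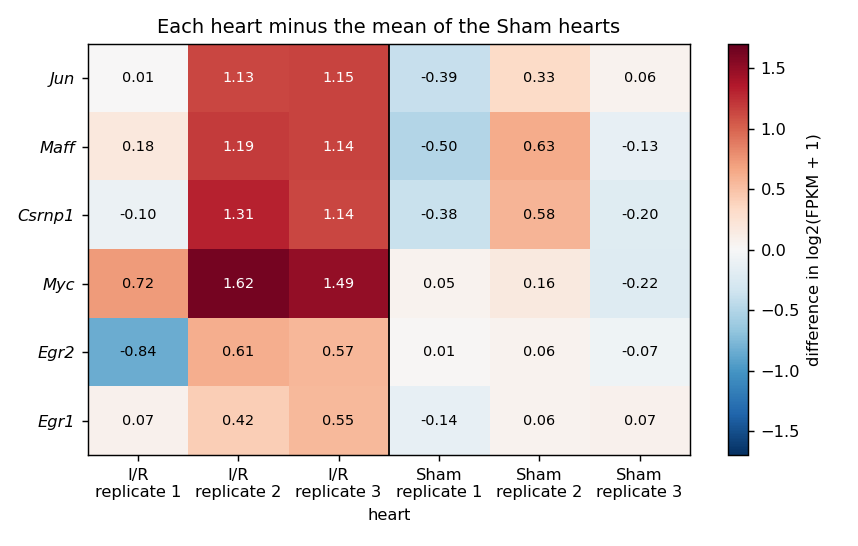
Difference of each heart from the Sham mean in log2(FPKM + 1), as colour and number, for the 6 early factor genes tested (rows) in the I/R hearts (left columns) and Sham hearts (right columns). I/R replicates 2 and 3 are above 0 in every row, and I/R replicate 1 runs from -0.84 in Egr2 to 0.72 in Myc.

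Jun, Maff and Csrnp1 moved over the hearts in nearly the same way. Likeness was measured as the root mean square difference of log2(FPKM + 1) over the 6 hearts after each gene's mean was removed, which is 0 for identical profiles. It was 0.14 between Maff and Csrnp1, 0.17 between Jun and Maff and 0.17 between Jun and Csrnp1, and 0.36 or more between the other pairs among the genes that averaged 1 FPKM or more. These are descriptions over 6 hearts that share their libraries.

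Among 2118 other protein-coding genes that averaged 5 FPKM or more, the 3 most like Jun were Ch25h, Eid3 and Adamts1, at 0.14, 0.15 and 0.15. Adamts1, a secreted metalloproteinase, had 95.5, 164 and 190 FPKM in I/R replicates 1, 2 and 3, against 71.8, 115 and 75.8 FPKM in Sham replicates 1, 2 and 3. It was also the third nearest to Maff, after Tnfaip6, a secreted hyaluronan-binding protein, and Csrnp1. Csrnp1 was nearest to Maff, Jun and Ch25h, the enzyme that makes 25-hydroxycholesterol.

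The genes nearest to Myc were Map3k5, Zfp36 and Gadd45b, at 0.18, 0.19 and 0.20. Zfp36 encodes tristetraprolin, which hastens the decay of mRNAs with AU-rich elements, and had 16.6, 30.8 and 24.5 FPKM in I/R replicates 1, 2 and 3, against 12.2, 14.2 and 8.03 FPKM in Sham replicates 1, 2 and 3. Gadd45b, a stress-induced regulator of p38 and JNK signalling, had 12.1, 25.7 and 19.6 FPKM in I/R, against 7.16, 10.3 and 8.18 FPKM in Sham, in the same order of replicates. In both, I/R replicate 1 was the lowest I/R heart, and all I/R hearts were above all Sham hearts. Both genes were picked for a profile like that of Myc, so this order follows from the choice.

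Egr2 had other neighbours, the muscle genes Csrp3 and Smyd1 and the circadian repressor Bhlhe41. Csrp3, which encodes the muscle LIM protein of cardiomyocytes, had 212, 563 and 583 FPKM in I/R replicates 1, 2 and 3, against 414, 495 and 430.45 FPKM in Sham replicates 1, 2 and 3. As for Egr2, I/R replicate 1 was below all Sham hearts and the other I/R hearts above them, at a likeness of 0.13. Csrp3 was picked for this likeness, so the shared order follows from the choice.

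Both Jun and Csrnp1 lie under lncRNAs on the other strand that were also in the table. Junos (ENSMUSG00000087366, chromosome 4, 95051534 to 95167318, plus strand) overlaps Jun by 689 bases and had 1842, 4358 and 4085 FPKM in I/R replicates 1, 2 and 3, against 1383, 2170 and 2049 FPKM in Sham replicates 1, 2 and 3. The length recovered for the listed Junos transcript was 864 bases, so the overlap of 689 bases may cover most of it. The difference of Junos was 0.80 ± 0.35 (limma adjusted p = 0.595), and its profile lay 0.07 from that of Jun. There were 280.3, 309 and 294 Junos reads per 1000 Jun reads in I/R replicates 1, 2 and 3, against 272, 258 and 292.5 in Sham replicates 1, 2 and 3. FPKM of lncRNAs were scaled to another total than those of mRNAs, so the levels of the 2 genes are compared by reads. The likeness of 0.07 was computed from FPKM.

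The lncRNA 1700019L13Rik (ENSMUSG00000111639, chromosome 9, 119983146 to 119988092, plus strand) overlaps Csrnp1 by 1513 bases. It had 17.4, 46.6 and 45.3 FPKM in I/R replicates 1, 2 and 3, against 18.6, 20.5 and 14.9 FPKM in Sham replicates 1, 2 and 3, a difference of 0.87 ± 0.37 (limma adjusted p = 0.595). The difference was 1.32 without I/R replicate 1 and 0.63 without I/R replicate 2. Here too I/R replicate 1 lay among the Sham hearts. Whether counting used strand was not stated in the labels, so reads of Jun and Junos, and of Csrnp1 and 1700019L13Rik, cannot be told apart where they overlap. For Junos this may be most of the transcript, so its likeness to Jun is not read as that of a separate RNA. How many reads the pairs share was not tested.

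**Figure D4:**
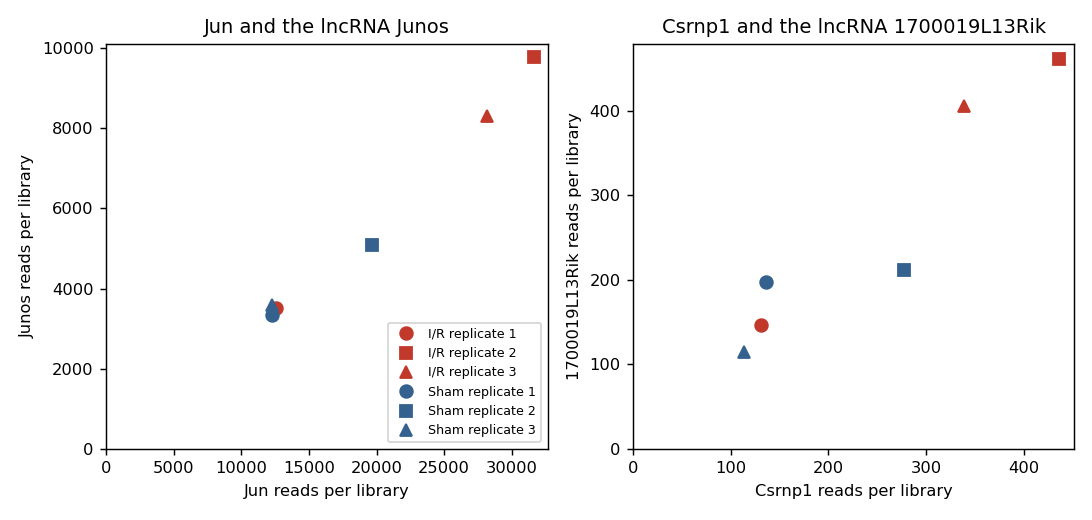
Reads recovered per heart for Jun against Junos (left) and for Csrnp1 against 1700019L13Rik (right), not scaled for depth, with 1 point per heart for I/R and Sham. The Jun points run close to 1 line, at 258 to 309 Junos reads per 1000 Jun reads, and the Csrnp1 points scatter more widely.

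Within 100 kb of the 7 genes lay 22 lncRNAs of the table, near 6 of the genes, and 17 of them were tested. Of these, 10 were higher and 7 lower in I/R hearts, 0 passed the adjustment and 2 had an unadjusted limma p under 0.05, as did 10.8% of the 7073 lncRNAs tested, so the count is near the background. The 2 were Gm2449, which lies 76300 bases from Csrnp1, and D730003I15Rik, 6415 bases from Atf3, with differences of 0.67 ± 0.25 and 0.39 ± 0.15. Pvt1, the lncRNA downstream of Myc, starts 47612 bases from it on the same strand. It had 24.4, 19.0 and 20.8 FPKM in I/R replicates 1, 2 and 3, against 15.9, 19.5 and 16.5 FPKM in Sham replicates 1, 2 and 3 (difference 0.29 ± 0.15, limma adjusted p = 0.661), and unlike Myc it was highest in I/R replicate 1.

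The wider pathway was described with 11 lists, which hold 137 genes besides the 7. Of these, 38 were in the table above the filter, and 28 were higher and 10 lower in I/R hearts, with a median difference of 0.08 and 0 genes past the adjustment. All I/R hearts were above all Sham hearts in 4 of the 38, against 8.83% of the protein-coding genes. Many textbook members were not analysed here, among them Fos, Fosb, Junb and Jund, so Jun was the only AP-1 gene of its own family with a value.

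Among the few partners and relatives that were tested, differences were small on the log2(FPKM + 1) scale. Most genes of these lists were absent or below the filter, so nothing is said of them. Of the 11 genes of the MAF and CNC list besides Maff, 3 were tested, 2 higher and 1 lower in I/R, with a median of 0.02. Nfe2l2, which encodes NRF2, the partner of small MAF proteins, averaged 110.3 ± 10.6 FPKM in I/R and 109.6 ± 16.2 FPKM in Sham (SD, n = 3 each). Mafa had 1.99 ± 0.458 FPKM in I/R and 1.48 ± 0.449 FPKM in Sham, and Maf 11.7 ± 2.75 FPKM in I/R and 12.3 ± 2.74 FPKM in Sham. Of the ATF and CREB list, 2 of 17 genes were tested, Batf with a difference of 0.21, which was 0.06 without I/R replicate 1 and 0.09 without Sham replicate 3, and Atf7 with -0.29, which was -0.06 without I/R replicate 2. The EGR corepressor Nab2 had 0.964 ± 0.958 FPKM in I/R and 1.22 ± 0.767 FPKM in Sham. These values rest on 9 reads in all I/R hearts together and 14 in all Sham hearts, too few to call its difference small. Of the MYC, MAX and MXD network, Mlxip was tested beside Myc and had 1.998 ± 0.160 FPKM in I/R and 2.13 ± 0.672 FPKM in Sham.

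Of the MAP kinase cascades, which lie upstream, 7 of 20 genes were tested, 4 higher and 3 lower in I/R hearts, with a median of 0.01. Map3k5 (ASK1, a stress-activated kinase upstream of JNK and p38) had 19.0, 53.3 and 38.4 FPKM in I/R replicates 1, 2 and 3, against 16.6, 15.3 and 12.8 FPKM in Sham replicates 1, 2 and 3. Its difference was 1.15 ± 0.35, with a limma adjusted p of 0.471, and I/R replicate 1 was the nearest to the Sham hearts. It rested on 1 of its 2 listed transcripts, that of 789 bases, which had 73, 335 and 190 reads in I/R replicates 1, 2 and 3, against 78, 65 and 34 reads in Sham replicates 1, 2 and 3. The transcript of 5450 bases had 5.55 to 7.59 FPKM in I/R and 6.62 to 6.80 FPKM in Sham. With voom on the reads of both transcripts the difference of Map3k5 was 0.42, and with its most abundant transcript alone it was 1.596. Map2k1, the kinase of ERK, had 45.75 ± 2.545 FPKM in I/R and 41.2 ± 1.01 FPKM in Sham. Mapk14 (p38 alpha) had 2.89 ± 0.252 FPKM in I/R and 3.81 ± 0.376 FPKM in Sham, and Mapk10 (JNK3) 0.636 ± 0.161 FPKM in I/R and 1.24 ± 0.331 FPKM in Sham. SRF and its partners and kinases had 4 of 14 genes tested, 2 higher and 2 lower. Myocd, the SRF coactivator of muscle, ranged over 5.35 to 10.1 FPKM in I/R and over 1.56 to 22.2 FPKM in Sham.

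Most of the downstream and feedback genes tested had a higher mean in I/R hearts, as had 54.9% of the 5041 protein-coding genes, and none passed the test. The differences of Dusp4, Spry2 and Srxn1 changed sign with a heart left out. Of the MAP kinase feedback inhibitors, 5 of 15 were tested and 5 were higher, with a median of 0.12. Dusp10, a phosphatase of p38 and JNK, had 11.6 ± 2.88 FPKM in I/R and 8.44 ± 1.69 FPKM in Sham, and Spred1, an inhibitor of RAS signalling, 35.9 ± 3.42 FPKM in I/R and 33.6 ± 0.718 FPKM in Sham. Of other immediate-early genes, 5 of 21 were tested and 5 were higher, with a median of 0.44. Btg1, an antiproliferative gene, had 8.76, 11.9 and 9.56 FPKM in I/R replicates 1, 2 and 3, against 5.59, 5.90 and 4.14 FPKM in Sham replicates 1, 2 and 3 (difference 0.84 ± 0.20, limma adjusted p = 0.388). In Btg1, unlike in Jun, Maff and Csrnp1, I/R replicate 1 stood clear of every Sham heart. Cyr61, a secreted matrix protein gene, had 498, 921 and 997 FPKM in I/R, against 390, 726 and 666 FPKM in Sham, in the same order of replicates, and so placed I/R replicate 1 among the Sham hearts as Jun did.

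Of 16 genes known as MYC targets, 10 were tested, 9 higher and 1 lower in I/R hearts, with a median of 0.12. Over the protein-coding genes tested, 54.9% were higher, with a median of 0.02. The differences of Ncl and Ccnd2 changed sign with a heart left out. Odc1, the first enzyme of polyamine synthesis, had 1.49 ± 0.880 FPKM in I/R and 0.893 ± 0.231 FPKM in Sham. Ncl (nucleolin) had 32.5 ± 5.90 FPKM in I/R and 30.7 ± 2.57 FPKM in Sham, and Ccnd2 (cyclin D2) 98.1 ± 14.4 FPKM in I/R and 98.4 ± 4.59 FPKM in Sham. None of the 10 had an unadjusted limma p under 0.05.

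**Figure D5:**
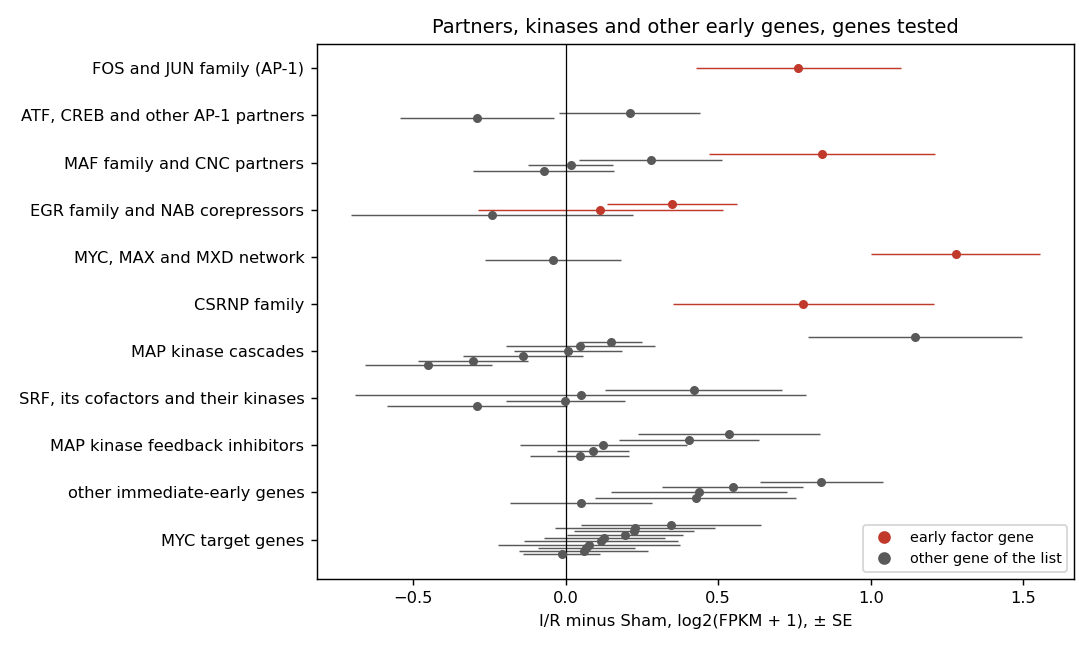
Difference in log2(FPKM + 1), I/R minus Sham, with its standard error, for the tested genes of the pathway lists, with the early factor genes in red and all differences from 3 hearts against 3. Myc, Map3k5, Btg1, Maff, Csrnp1 and Jun lie furthest to the right, and the other genes lie between -0.45 (Mapk10) and 0.55 (Hes1).

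In whole hearts, fewer cells of a type and less RNA per cell cannot be told apart. Cardiomyocyte markers, 10 of 12 in the table, marked the tissue as heart, with summed levels of 584, 605 and 543 FPKM in I/R replicates 1, 2 and 3, against 763, 684 and 693 FPKM in Sham replicates 1, 2 and 3, and 8 of the 10 were lower in I/R. The lower genes include small differences, such as -0.05 for Ttn, and 0 of the 10 passed the adjustment. Beside this and the counts below, 54.9% of the 5041 protein-coding genes tested were higher in I/R. Macrophage markers, 5 of 9 in the table, summed to 1144 to 1238 FPKM in I/R and 921 to 1104 FPKM in Sham, and 5 of 5 were higher in I/R. Fibroblast markers, 7 of 8 in the table, summed to 298 to 337 FPKM in I/R and 212 to 289 FPKM in Sham, and of the 6 tested 5 were higher and 1 lower in I/R. Endothelial markers, 4 of 8 in the table, summed to 116 to 149 FPKM in I/R and 102 to 125 FPKM in Sham, and of the 3 tested 2 were higher and 1 lower in I/R. Most of that sum was Kdr, with 129 ± 17.4 FPKM in I/R and 102.5 ± 14.7 FPKM in Sham, and the lower gene was Tie1, with 1.35 ± 0.378 FPKM in I/R and 2.57 ± 0.232 FPKM in Sham. Neutrophil markers, 3 of 7 in the table, summed to 0.564 to 1.73 FPKM in I/R and 0 to 1.02 FPKM in Sham. Lymphocyte, blood and smooth muscle markers had overlapping sums in the groups, of 0.752 to 1.42, 1.44 to 7.76 and 794 to 1131 FPKM in I/R and 1.03 to 1.596, 2.37 to 7.29 and 810.0 to 1062 FPKM in Sham. No marker in the table was at 0 in all hearts. I/R replicate 1, the lowest I/R heart for the early factor genes, lay between the other I/R hearts in the sums of cardiomyocyte, fibroblast, neutrophil, lymphocyte and blood markers, was the lowest in macrophage markers, and was the highest in endothelial and smooth muscle markers. The part of cell makeup in the differences was not tested.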

How the data were processed

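Poly(A) RNA of 6 mouse hearts was sequenced, per the labels' protocols. The authors deposited FPKM for each transcript. HISAT2 2.1.0, HTSeq 0.10.0, fastp 0.23.0 and bcl2fastq 2.19.1.403 appear in the submitters' processing notes, as do the builds mm10, GRCm38 and GRCm39. The annotation, strand setting and feature counted were not given in the sources used. Coordinates are those of the table, and 99.9% of 8614 genes overlapped their RefSeq GRCm38 span by at least 50%.

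Of 21198 rows, 40 repeated a transcript and were dropped, and FPKM were summed per gene. FPKM of a library are whole multiples of 1 read over length and total, which gave back whole reads (within 0.001) for 11744 of the 11745 mRNA transcripts and 9413 of the 9413 lncRNAs. The FPKM alone leave a whole factor free, and with the totals used the length recovered equalled the span of the gene in 237 of 4300 mRNA transcripts and 1659 of 4064 lncRNAs with at least 100 reads, against 1 and 12 with lengths multiplied by 2. Totals were 7233171 to 9902397 reads for mRNA and 2025331 to 2792592 for lncRNA, and read numbers here cover counting error only. Tests used limma 3.58.1 (R 4.3.3) on log2(FPKM + 1) (1 factor for the group, two-sided tests, variance prior with a trend, threshold 0.05 after Benjamini-Hochberg adjustment over the 12114 genes that averaged 0.5 FPKM or more). Atf3, below this filter, was tested with an exact permutation test.

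The genes, lists, markers and tests were chosen with earlier results of these data known. Named were each of the 7 genes, genes from the 3 highest in mean FPKM and the 2 with the largest difference of each list, lncRNAs within 100 kb, and the 3 protein-coding genes (averaging 5 FPKM or more) nearest in profile to each of the genes that averaged 1 FPKM or more. Promoter windows are from RefSeq, GRCm38.p6. The settings varied were the pseudocount, filter, scaling, variance prior and library weights, with in addition a replicate block, the most abundant transcript, protein-coding genes alone, voom on recovered reads and each heart left out. The labels call the libraries biological replicates without naming animals, so p-values measure the spread between these samples. Figures were drawn with matplotlib 3.10.9 and tables made with pandas 2.3.3, scipy 1.17.1 and numpy 2.4.6 in Python 3.11.15.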

Additional observations from a re-analysis of the deposited data

How the results depend on the processing

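Under each of 18 alternatives 0 genes passed the adjustment, with smallest adjusted p of 0.0881 to 0.485, and 455 to 1222 genes had an unadjusted limma p under 0.05, against 1023. Of 781 alternative values of 45 results, 26 were reversed. Differences of the early factor genes with each heart left out ranged over 0.57 to 1.14 for Jun, 0.59 to 1.17 for Maff, 0.25 to 0.49 for Egr1, -0.14 to 0.59 for Egr2, 1.11 to 1.56 for Myc, 0.52 to 1.22 for Csrnp1 and 0.02 to 0.11 for Atf3. In the other genes reversed when a heart was left out, the ranges were -0.22 to 0.10 for Maf, -0.10 to 0.11 for Nfe2l2, -0.59 to 0.18 for Nab2, -0.18 to 0.12 for Mlxip, -0.78 to 0.81 for Myocd, -0.0652 to 0.42 for Dusp4, -0.0200 to 0.17 for Spry2, -0.13 to 0.23 for Srxn1, -0.0672 to 0.18 for Ncl and -0.13 to 0.0704 for Ccnd2. Other settings reversed small differences. Nfe2l2 was -0.0181 with quantile normalization and -0.0293 with voom, Myocd -0.087 with a pseudocount of 5 FPKM, -0.0747 with array weights and -0.0232 with voom, and Spry2 -0.0034 with voom. The cause was not tested. With a filter of 5 FPKM, Egr1 and Egr2 were not tested and 640 genes had an unadjusted p under 0.05, and with protein-coding genes alone 455 did, where fewer genes were tested. Same-numbered hearts deviated together only weakly (r = 0.153, 0.0283 and 0.0287 over genes), and I/R replicate 3 correlated more with Sham replicate 2 (0.111). The labels do not state whether same-numbered hearts share more than a number, and this was not tested. With that number as a replicate block the differences were the same by construction, 0 genes were called and 1125 had an unadjusted p under 0.05. Jun then had 0.76 ± 0.15 with a limma adjusted p of 0.370, and the block changed no call. With the block the standard error fell from 0.34 to 0.15 for Jun, from 0.37 to 0.18 for Maff and from 0.43 to 0.25 for Csrnp1. It fell less for Egr1, Egr2 and Myc. Depth limits Atf3, Egr1 and Myc, which rest on few reads per heart.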
